A study of Mus musculus with 4 samples.

Results

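The genes described here are 65 of the 21938 nuclear protein-coding genes of mouse in GENCODE M21 (mm10), chosen only by symbol as splicing factor genes. They comprised 11 SR protein genes (symbols beginning Srsf and a digit), 20 heterogeneous nuclear ribonucleoprotein (hnRNP) genes, 9 genes of the SF3a and SF3b complexes, 12 Snrp genes and 13 Prpf genes. Occupancy by Eya1, a transcriptional coactivator and phosphatase of nephron progenitors, had been profiled by ChIP-seq in E13.5 mouse kidneys. By the authors' methods the chromatin came from Eya1 HA-FLAG knockin embryos, on a mixed genetic background, with 80 kidneys pooled for each ChIP assay. The titles of the control libraries give no embryonic day or number of kidneys. The 4 libraries were 2 Eya1 replicates, precipitated with anti-FLAG M2 beads, 1 input control and 1 IgG control, with no other treatment. Only the peak lists of the 2 Eya1 replicates were used. Peaks of the input and IgG libraries were not analysed here, and the Eya1 values therefore have no control values beside them. The chromatin came from whole kidneys, in which nephron progenitors lie among stromal and ureteric cells, so a peak does not say in which cells Eya1 was bound.

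Pre-mRNA splicing is carried out by the spliceosome, which is assembled on each intron from small nuclear ribonucleoproteins (snRNPs) and many further proteins. Snrp genes encode the Sm ring and other proteins of the U1 and U2 snRNPs, SF3a and SF3b bind the branch site as parts of the U2 snRNP, and most Prpf proteins act in the tri-snRNP or in the rearrangements that make the spliceosome active. SR proteins and hnRNPs bind the transcript itself and shift the choice of exons, often in opposite directions.

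Of the 65 genes, 51 (78.5%, exact 95% confidence interval 66.5 to 87.7%) had an Eya1 peak within 1 kb of an annotated transcription start site (TSS) in at least 1 list, beside 23.5% of all protein-coding genes. In replicate 1 there were 50 (76.9%, interval 64.8 to 86.5%) beside 20.3% of all genes, and in replicate 2 there were 45 (69.2%, interval 56.6 to 80.1%) beside 14.7%. The mean share over the replicates was 73.1% ± 5.44 (SD, n = 2) for the splicing factor genes and 17.5% ± 3.92 for all protein-coding genes. For 44 genes (67.7%, interval 54.9 to 78.8%) each list had a peak within 1 kb of a TSS, beside 11.5% of all genes. This rule did not require the peaks to overlap, but peaks of the 2 lists did overlap at all 44 genes. The count of 44 fell to 28 when a peak had to cover the TSS base and to 3 when each peak had to cover 50% of the other. The intervals cover counting error over genes only, and the depth behind a peak is unknown because the lists hold no counts or scores. The genes were selected with earlier results of these data known, so these shares are given as a description without a test.

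Most of the splicing factor genes have CpG-rich promoters, so each share was also set beside that of all other protein-coding genes with the same distribution of CpG number. CpG number was counted in the 1 kb centred on a TSS, at the TSS of each gene where it was highest, and the other genes were weighted to the decile counts of the splicing factor genes. The weighted share of the other genes was 44.1% for either list, 38.3% for replicate 1, 28.8% for replicate 2 and 23.0% for both lists. The splicing factor genes therefore lay above their CpG-weighted comparison by 34.4, 38.7, 40.5 and 44.7 percentage points, respectively. The difference was larger for peaks present in both lists than for peaks present in either, but this order turned when a peak had to cover the TSS base itself (39.0 points for either list and 34.5 for both), and with 50% mutual overlap the difference for both lists was 2.93 points.

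The sequences below show stretches of 120 bases near the start of 1 gene with peaks in both lists and 1 gene without a promoter peak in each subfamily, so that the local CpG content can be read beside the occupancy. They are read from GRCm38 in the direction of transcription, with CpG dinucleotides in capitals, and avoid annotated exons. In the first of each pair the stretch lies inside a replicate 2 peak, and in the second it is the exon-free stretch centred closest to 337 bp downstream of the start, the median position of the replicate 2 peaks. The occupied stretches held 13 (Srsf10), 11 (Hnrnpdl), 20 (Sf3a2), 14 (Snrpb) and 17 CpGs (Prpf4b), and the unoccupied ones held 14 (Srsf12), 10 (Hnrnph2), 7 (Sf3a3), 1 (Snrpn) and 7 (Prpf18). In these pairs the occupied stretch held more CpGs in every subfamily but the SR genes, and unoccupied Srsf12 held as many as occupied Snrpb. The pairs are single examples and do not stand for their subfamilies. Snrpn and Prpf18, with 30 and 40 CpGs in 1 kb, were the CpG-poorest unoccupied genes of theirs. The stretches of Srsf10, Hnrnpdl and Sf3a2 were centred at 967, -503 and 668 bp from the start, and the unoccupied ones at 337 to 440 bp.
Srsf10 chr4:135856654-135856773 (plus strand): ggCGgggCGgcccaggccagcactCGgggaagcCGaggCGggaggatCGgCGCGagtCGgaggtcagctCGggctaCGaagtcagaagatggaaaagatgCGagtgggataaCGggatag
Srsf12 chr4:33209371-33209490 (plus strand): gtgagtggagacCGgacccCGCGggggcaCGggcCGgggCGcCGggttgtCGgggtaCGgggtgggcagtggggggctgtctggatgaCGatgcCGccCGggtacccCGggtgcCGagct
Hnrnpdl chr5:100039665-100039784 (minus strand): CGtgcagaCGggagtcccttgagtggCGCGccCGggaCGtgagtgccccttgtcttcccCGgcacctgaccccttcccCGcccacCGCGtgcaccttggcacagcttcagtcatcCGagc
Hnrnph2 chrX:134601456-134601575 (plus strand): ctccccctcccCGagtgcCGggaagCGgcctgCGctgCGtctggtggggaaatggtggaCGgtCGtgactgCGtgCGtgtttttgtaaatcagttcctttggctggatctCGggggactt
Sf3a2 chr10:80798806-80798925 (plus strand): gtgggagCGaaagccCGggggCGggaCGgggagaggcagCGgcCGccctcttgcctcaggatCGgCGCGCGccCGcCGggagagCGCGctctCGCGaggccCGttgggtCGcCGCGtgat
Sf3a3 chr4:124715053-124715172 (plus strand): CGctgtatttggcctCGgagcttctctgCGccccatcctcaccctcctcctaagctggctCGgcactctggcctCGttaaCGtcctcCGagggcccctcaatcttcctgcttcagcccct
Snrpb chr2:130179006-130179125 (minus strand): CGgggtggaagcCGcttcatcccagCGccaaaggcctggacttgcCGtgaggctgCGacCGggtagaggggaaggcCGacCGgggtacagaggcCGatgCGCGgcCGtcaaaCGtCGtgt
Snrpn chr7:60139822-60139941 (minus strand): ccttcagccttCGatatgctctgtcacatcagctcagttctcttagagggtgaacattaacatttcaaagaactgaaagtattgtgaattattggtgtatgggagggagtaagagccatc
Prpf4b chr13:34875695-34875814 (plus strand): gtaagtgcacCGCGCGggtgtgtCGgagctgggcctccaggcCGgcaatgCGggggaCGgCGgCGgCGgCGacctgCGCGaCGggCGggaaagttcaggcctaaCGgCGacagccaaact
Prpf18 chr2:4651714-4651833 (minus strand): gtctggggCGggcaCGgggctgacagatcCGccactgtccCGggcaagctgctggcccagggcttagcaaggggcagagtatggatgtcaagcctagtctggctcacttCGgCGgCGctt

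The subfamilies differed in how many genes were occupied, and the SR and hnRNP genes, whose products bind the transcript, had the highest shares. Of the 11 SR genes, 9 (81.8%) had peaks in both lists, namely Srsf1, Srsf2, Srsf3, Srsf4, Srsf5, Srsf6, Srsf7, Srsf10 and Srsf11. Srsf9 had a peak in replicate 2 only, and Srsf12 had none. Of the 20 hnRNP genes, 18 (90%) had peaks in both lists, and the exceptions, Hnrnpa1 and Hnrnph2, had none in either. Hnrnph2 is the only splicing factor gene on the X chromosome, where 24 of 948 protein-coding genes had a promoter peak in either list.

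The genes of the snRNPs and of the activation machinery were occupied less completely. Of the 9 SF3 genes, 5 (55.6%) had peaks in both lists (Sf3a2, Sf3b1, Sf3b2, Sf3b3 and Sf3b4), Sf3a1 had a peak in replicate 1 only, and Sf3a3, Sf3b5 and Sf3b6 had none. Of the 12 Snrp genes, 5 (41.7%) had peaks in both lists (Snrpa, Snrpb, Snrpb2, Snrpd1 and Snrpe), 3 had a peak in replicate 1 only (Snrpa1, Snrpd3 and Snrpg), and Snrpc, Snrpd2, Snrpf and Snrpn had none. Of the 13 Prpf genes, 7 (53.8%) had peaks in both lists (among them Prpf4b, Prpf6, Prpf8, Prpf19, Prpf38b and Prpf39), Prpf4 and Prpf40b had a peak in replicate 1 only, and Prpf3, Prpf18, Prpf31 and Prpf38a had none. With 9 to 20 genes in a subfamily the exact intervals were wide, for example 15.2 to 72.3% for the Snrp genes and 68.3 to 98.8% for the hnRNP genes, so the order among subfamilies is weakly determined.

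The CpG content of the promoters also differed between the subfamilies. Median CpG number was 111 in the SR genes and 108 in the hnRNP genes, against 63 in the SF3, 67.5 in the Snrp and 69 in the Prpf genes, and 49.5 over all protein-coding genes. The CpG-weighted share of other genes for either list was 56.4% for the SR, 55.9% for the hnRNP, 32.5% for the SF3, 31.5% for the Snrp and 35.8% for the Prpf genes. Set against these, the share of occupied genes was higher by 34.5, 34.1, 34.2, 35.2 and 33.4 percentage points, respectively. For either list the difference was thus nearly the same in every subfamily, while for both lists, with CpG-weighted shares of 13.4 to 33.0%, it ran from 28.3 points in the Snrp genes to 57.6 points in the hnRNP genes.

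**Figure D1:**
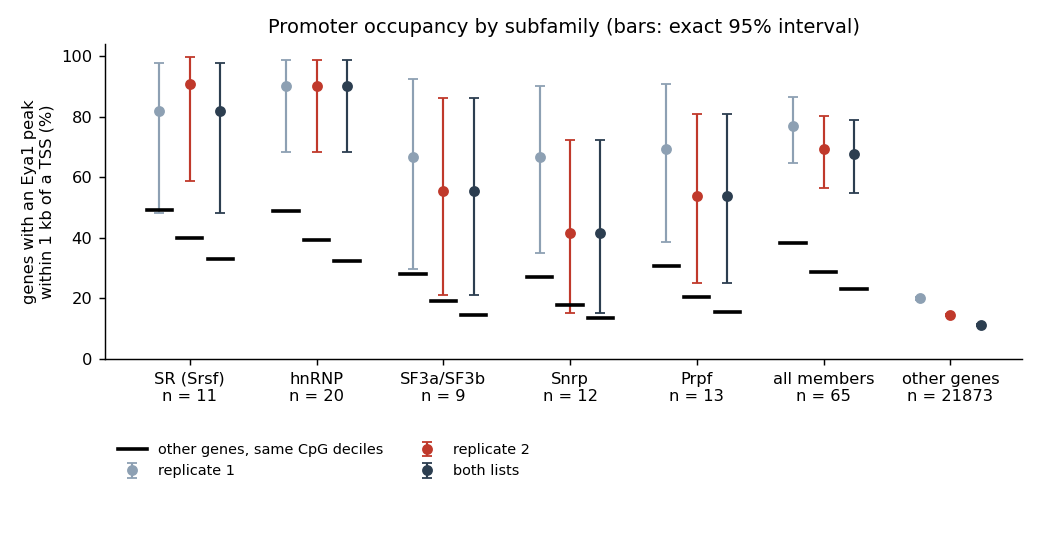
Share of genes with an Eya1 peak within 1 kb of a TSS (y axis, percent) in replicate 1, replicate 2 and both lists, for each subfamily, for all 65 splicing factor genes and for all other protein-coding genes. Bars are exact 95% intervals and black lines the share of other genes weighted to the same CpG deciles; the share of all splicing factor genes was 76.9%, 69.2% and 67.7%, above the lines at 38.3%, 28.8% and 23.0%.

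Occupancy was compared within bins of CpG number. None of the 4 splicing factor genes in CpG deciles 1 to 5 (Sf3b5, Snrpn, Prpf18 and Snrpc, with 5, 30, 40 and 48 CpGs) had a promoter peak, beside 3.38% of the other genes there, so that 4 genes are too few to set them apart. Sf3b5 was counted there from a start that RefSeq places elsewhere. In deciles 6 and 7 (50 to 71 CpGs) 13 of 22 (59.1%) were occupied, beside 29.5% of the other genes. In deciles 8 and 9 (72 to 101 CpGs) 18 of 19 (94.7%) were occupied beside 47.5%, and in decile 10 (102 CpGs and above) 20 of 20 beside 63.6%. The only unoccupied gene among the 39 in deciles 8 to 10 was Snrpf, an Sm ring gene with 77 CpGs.

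Genes with similar CpG numbers could still differ. Sf3b4 and Hnrnpa1 both had 63 CpGs, and Sf3b4 had peaks in both lists whereas Hnrnpa1, which encodes an abundant hnRNP, had its nearest replicate 1 peak 32340 bp away. Srsf12 and Sf3b3 both had 65 CpGs, and again only Sf3b3, a large scaffold of SF3b, was occupied, in both lists. The median CpG number was 92.5 in the 44 genes with peaks in both lists, 70 in the 7 with a peak in 1 list and 60 in the 14 without a promoter peak, whose range of 5 to 77 overlapped the range of 54 to 155 of the first group.

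**Figure D2:**
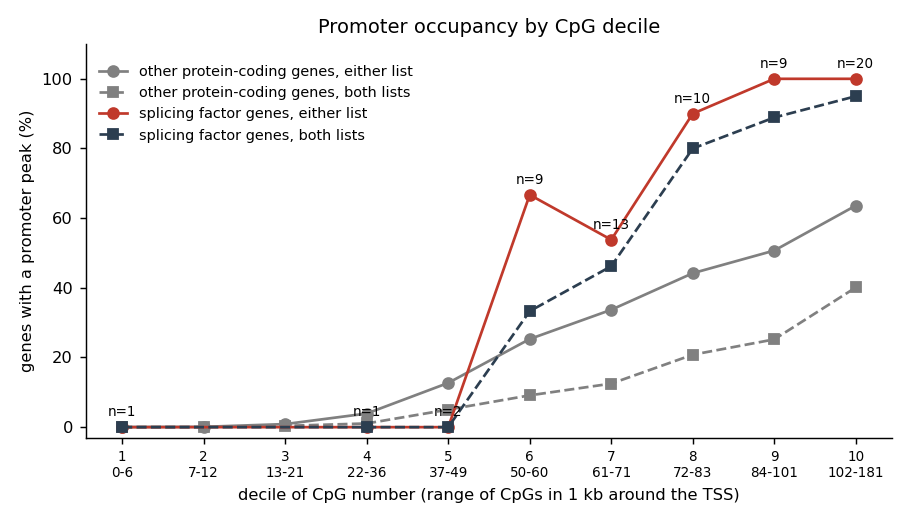
Percent of genes with a promoter peak (y axis) by decile of CpG number over all protein-coding genes (x axis, with the range of CpGs in 1 kb), for splicing factor genes and other protein-coding genes in either list and in both lists, with the number of splicing factor genes above the points. From decile 8 upward 38 of 39 splicing factor genes had a peak, and in decile 10 the shares in both lists were 95% and 40.1%.

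The median width of the promoter peaks of these genes was above that of other genes in each list. The lists differ in width over all peaks, with a median of 1069 bp in replicate 1 and 188 bp in replicate 2, so widths are compared only within a list. The 54 replicate 1 promoter peaks of splicing factor genes had a median width of 1414 bp (range 449 to 2863 bp), beside 1097 bp for the promoter peaks of other genes. The 65 replicate 2 peaks had a median of 308 bp (range 117 to 1062 bp), beside 198 bp. The width of 117 bp is the minimum of the whole replicate 2 list, and 4 of the 65 peaks had it. In replicate 1, 14 of the 54 peaks (25.9%) spanned 2 kb or more, beside 8.88% of the other promoter peaks.

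The widest peaks lay at hnRNP and SR genes. Median widths in replicate 1 were 1946 bp for the hnRNP, 1779.5 bp for the SR, 1289 bp for the SF3, 1138 bp for the Prpf and 881 bp for the Snrp genes. In replicate 2 the same medians were 369, 294, 284, 243 and 199 bp, which is the same order. Of the 14 replicate 1 peaks of 2 kb or more, 10 lay at hnRNP genes and 2 at SR genes. These widths were not weighted by CpG number. Of the 20 splicing factor genes in CpG decile 10, 12 were hnRNP and 7 were SR genes.

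Peak width and CpG number were more closely related among the splicing factor genes than among the others. Spearman's rho between CpG number and the widest replicate 1 peak of a gene was 0.77 over 50 splicing factor genes and 0.32 over 4394 other genes, and with the widest replicate 2 peak it was 0.39 over 45 and 0.22 over 3182. These correlations are across genes of 1 library, which are not independent replicates, and are given as a description. In CpG deciles 1 to 7 the median widest replicate 1 peak was 907 bp in 13 splicing factor genes and 908 bp in 1410 other genes. In decile 10 it was 2015 bp in 19 splicing factor genes and 1332 bp in 1206 others. In deciles 8 and 9 it was 1389 bp in 18 splicing factor genes and 1182 bp in 1778 others. The difference in replicate 1 width was thus seen in deciles 8 to 10 and not in deciles 1 to 7. In that lowest bin the 13 splicing factor genes all lay in deciles 6 and 7, whereas the other genes also came from deciles 1 to 5. In replicate 2 the medians were 272 and 181 bp in deciles 1 to 7 and 432 and 256 bp in decile 10.

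**Figure D3:**
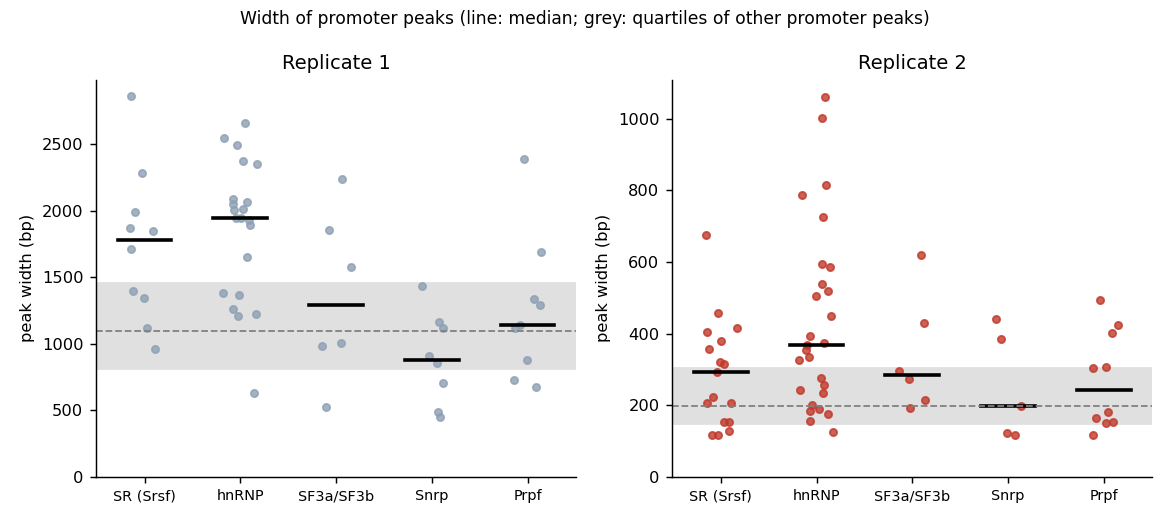
Width in bp (y axis) of each promoter peak of the splicing factor genes by subfamily in replicate 1 (left) and replicate 2 (right), with black lines at the subfamily medians. The dashed line and grey band are the median and quartiles of promoter peaks of other genes; the hnRNP medians were 1946 and 369 bp, against 1097 and 198 bp for other genes.

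Among the SR genes, the widest intervals covered by both lists were at Srsf2 and Srsf3, whose products are small SR proteins that bind exonic enhancers. At Srsf2 the replicate 1 peak spanned 2863 bp (chr11:116851479-116854341) and reached 1615 bp downstream of the start of its principal transcript. Inside it lay 3 replicate 2 peaks of 320, 117 and 206 bp, and the start of Mfsd11 on the opposite strand lay 201 bp away, so the peak cannot be ascribed to 1 of the 2 genes. At Srsf3 the replicate 1 peak spanned 2280 bp (chr17:29031914-29034193) and held replicate 2 peaks of 358 and 152 bp.

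Several replicate 2 peaks were found at further SR genes. Srsf6 had peaks of 378 and 458 bp, and Srsf7, whose product takes part in splicing and export of mRNA, had 3 of 416, 127 and 153 bp. At Srsf10, which encodes an SR-like repressor of splicing, the replicate 2 peaks of 117 and 206 bp both lay wholly in intronic sequence, at 620 to 736 and 907 to 1112 bp downstream of the start, and the Srsf10 sequence above is from the second. Srsf11 instead had 2 replicate 1 peaks, of 1115 bp at its principal start and of 962 bp at alternative starts, 4652 bp or more into the gene.

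Among the hnRNP genes, Hnrnpdl and Hnrnpu had the widest replicate 1 peaks. At Hnrnpdl, which encodes an AU-rich element binding relative of Hnrnpd, the replicate 1 peak spanned 2659 bp (chr5:100038158-100040816), with replicate 2 peaks of 243, 256 and 202 bp. The last lay upstream of the principal start, on the side of Enoph1, which starts 321 bp away on the opposite strand. At Hnrnpu, which encodes a nuclear matrix protein, a 2548-bp replicate 1 peak (chr1:178335922-178338469) held a single replicate 2 peak of 1003 bp. The longest replicate 2 peak of any splicing factor gene, of 1062 bp, was at Hnrnpll.

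Other hnRNP genes with several peaks fell into 2 patterns. Hnrnpa0, Hnrnpab, Hnrnpk and Hnrnpr had 1 replicate 1 peak holding 2 or 3 shorter replicate 2 peaks. At Hnrnpa0, an intronless gene, the replicate 2 peaks of 595, 234 and 334 bp lay on both sides of the start within a 2494-bp replicate 1 peak. Hnrnpa2b1, Hnrnpl and Hnrnpf had 2 separate replicate 1 peaks. At Hnrnpa2b1, which shares its promoter region with Cbx3 (466 bp away on the opposite strand), these were 1946 and 1207 bp wide, and 3 replicate 2 peaks fell within them. At Hnrnpf the peaks of 1652 and 1260 bp lay at alternative starts, the nearer 6316 bp downstream of the principal start.

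In the U2 snRNP the widest replicate 1 peaks were at Sf3a2 and Sf3b4. Sf3a2 had a replicate 1 peak of 2236 bp (chr10:80797398-80799633) with replicate 2 peaks of 192 and 621 bp, and the opposite-strand gene Plekhj1 starts 4 bp away. Sf3b4 had peaks of 1853 bp (chr3:96171635-96173487) and 272 bp. Sf3b1, which encodes the branch-site contact of SF3b, had 1573 and 214 bp. Sf3b5 was counted as unoccupied, but this rests on the gene model. The M21 gene begins at chr10:13005343, whereas RefSeq begins Sf3b5 3107 bp further downstream at 13008450, and a replicate 1 peak of 779 bp starts 8 bp from that position, at 13008458.

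Snrp genes had the shortest peaks, and none of the 8 with a promoter peak had more than 1 per list. Snrpb, which encodes the Sm proteins B and B', had the widest, of 1432 bp (chr2:130178325-130179756) in replicate 1 and 440 bp in replicate 2. Next in replicate 1, among Snrp genes with peaks in both lists, was Snrpe, another Sm gene, with 1116 bp (chr1:133609343-133610458). Its replicate 2 peak was 199 bp wide. Of the Sm genes, Snrpb, Snrpd1 and Snrpe had peaks in both lists, Snrpd3 and Snrpg in replicate 1, and Snrpd2 and Snrpf in neither. The brain-enriched, imprinted paralogue Snrpn had 30 CpGs, and its nearest peak in either list was 775223 bp away.

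Among the Prpf genes, Prpf38b had a replicate 1 peak of 1693 bp (chr3:108910303-108911995) that held a replicate 2 peak of 308 bp. Prpf8, the scaffold of the catalytic centre, had 1138 and 423 bp. Prpf6 was counted through an alternative start alone: its peaks, of 1333 bp in replicate 1 and of 153 and 150 bp in replicate 2, lay 8119 bp or more upstream of the principal start, near the start of the opposite-strand gene Zfp512b, and no peak lay within 1 kb of its RefSeq start.

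**Figure D4:**
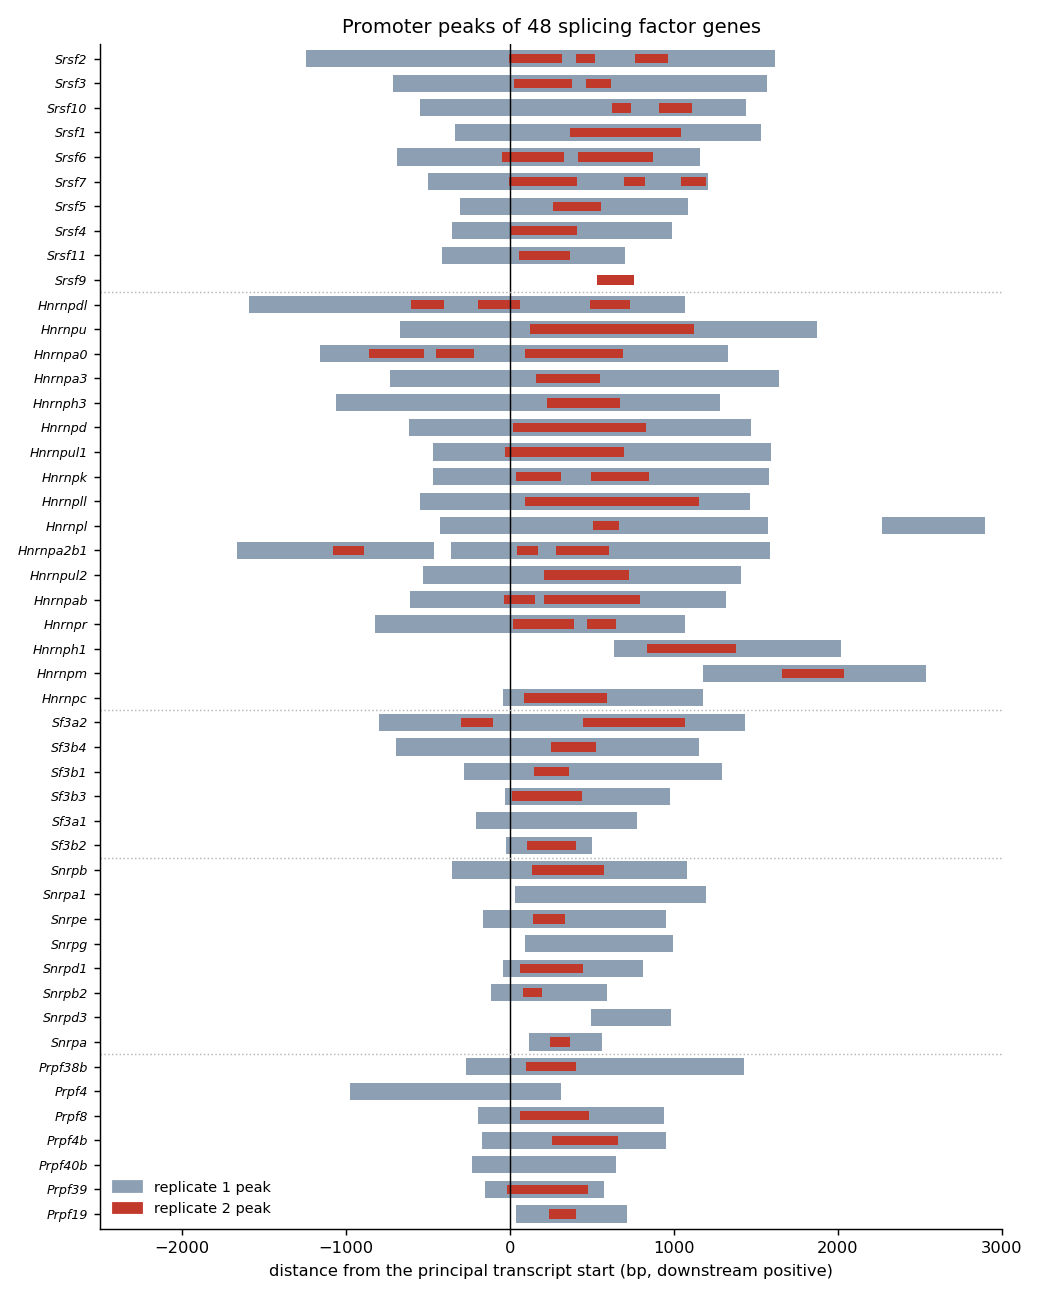
Promoter peaks of 48 splicing factor genes in replicate 1 (grey) and replicate 2 (red), 1 gene per row ordered by subfamily and width, by distance in bp from the principal transcript start (x axis, downstream positive). Hnrnpf and Prpf6, and the second replicate 1 peak of Srsf11, lie outside the range; replicate 2 peaks lie inside replicate 1 peaks at every gene shown but Srsf9.

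In all, 17 of the 51 occupied genes (33.3%) had 2 or more promoter peaks in a list, beside 13.6% of the 5100 other occupied genes. These shares were not weighted by CpG number or number of starts. The splicing factor genes had a median of 5 distinct annotated starts, beside 3 over all protein-coding genes. Counting only peaks over the TSS base left 7. The 17 genes were 6 of 10 SR, 8 of 18 hnRNP, 1 of 6 SF3, 0 of 8 Snrp and 2 of 9 Prpf genes. Most of these came from replicate 2, where 14 of 45 genes (31.1%) had several peaks (8 with 2 and 6 with 3), beside 18.3% of the other genes. In replicate 1 there were 4 of 50 (8%), beside 3.94%.

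The lists were closely nested at these promoters. Of the 65 replicate 2 peaks, 64 (98.5%) were contained in full by a replicate 1 peak, the exception being that of Srsf9, whose nearest replicate 1 peak was 10154 bp from its TSS. For promoter peaks of other genes the share was 74.7%. Conversely, 45 of 54 replicate 1 peaks (83.3%) overlapped a replicate 2 peak, beside 55.0%, and 14 (25.9%) held 2 or more, beside 10.3%. In all 44 genes with peaks in both lists the widest replicate 1 peak was wider than the widest replicate 2 peak, by a median factor of 3.89 (range 1.47 to 12.9), yet the widths of the 2 lists were only loosely related (Spearman's rho 0.32 over 44 genes, and 0.24 over 2476 other genes).

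Peaks of both lists were centred downstream of the start. A TSS of the gene lay inside 52 of the 54 replicate 1 peaks (96.3%) and 32 of the 65 replicate 2 peaks (49.2%). For promoter peaks of other genes, counting a TSS of any protein-coding gene, the shares were 91.4% and 32.3%. The midpoint lay downstream of the principal start for 49 of 54 and 56 of 65 peaks of splicing factor genes, at a median of 389 and 337 bp. Replicate 1 peaks extended from a median of 354 bp upstream to 1187 bp downstream, and replicate 2 peaks from 120 to 522 bp downstream. Exons made up 48.1% of the bases in replicate 1 peaks and 52.7% in replicate 2 peaks, introns 38.7% and 42.9%, and sequence outside genes 13.2% and 4.33%. Untranslated regions, counted within the exons, made up 21.4% and 26.7%.

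The downstream position of the midpoints was shared with other occupied genes. Among genes with peaks in both lists, 88.1% of the replicate 2 peaks within 1 kb of the principal start had their midpoint downstream of it, for splicing factor genes and for other genes alike. The median midpoints were 332 and 287 bp in replicate 2, and 380 and 333 bp in replicate 1. In replicate 2, 77.3% of the 44 splicing factor genes were covered at 300 bp downstream, the position where their coverage was highest, beside 43.8% of the 2476 other genes.

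**Figure D5:**
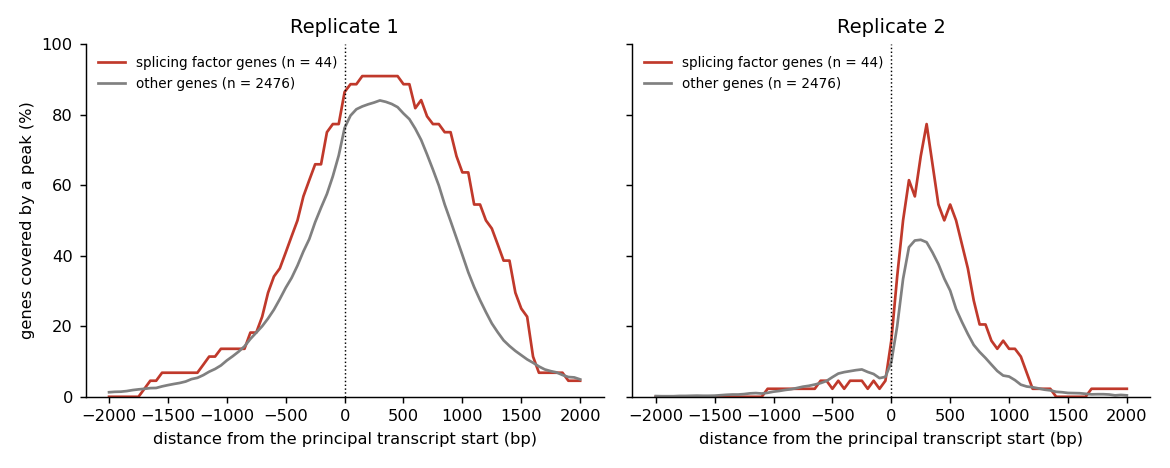
Percent of genes covered by a peak (y axis) by distance in bp from the principal transcript start (x axis), for genes with peaks in both lists, in replicate 1 (left) and replicate 2 (right), with splicing factor genes in red and other genes in grey. At 250 bp downstream 90.9% and 83.4% were covered in replicate 1, and 68.2% and 44.5% in replicate 2.

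Only 2 peaks fell in the genes beyond 1 kb of a start, a 227-bp replicate 2 peak in an intron of Hnrnpf, 1204 bp from the nearest start, and the replicate 1 peak of Sf3b5 described above. The farthest replicate 2 peak that still counted was that of Hnrnpa2b1, at 845 bp. Of the 51 occupied genes, 48 had a peak within 1 kb of the principal start, and Hnrnpf, Hnrnpm and Prpf6 were occupied only through other annotated starts.

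Splicing factor genes often face a second protein-coding gene. A protein-coding start on the opposite strand lay within 1 kb of a start for 23 of the 65 genes (35.4%), beside 12.3% of all protein-coding genes, and a peak at such a promoter counts for both genes. Peaks in both lists were found at 14 of these 23 genes (60.9%) and at 30 of the 42 others (71.4%). The intervals of these shares, 38.5 to 80.3% and 55.4 to 84.3%, overlapped. In replicate 1 the shares were 78.3% with a facing start and 76.2% without. Among the remaining protein-coding genes the shares were 22.5% and 9.75% in both lists, and 40.1% and 17.3% in replicate 1. None of these shares with and without a facing start was weighted by CpG number.

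Short motifs were looked for in the 200 bp around each peak midpoint, on both strands, and compared with the promoter peaks of other genes in the same list. The SP site GGGCGG was in 29 of 54 replicate 1 peaks (53.7%, beside 52.6%) and 41 of 65 replicate 2 peaks (63.1%, interval 50.2 to 74.7%, beside 53.4%). The ETS site CCGGAAG was in 7.41% beside 7.01% in replicate 1 and 1.54% beside 5.21% in replicate 2, and the NFY site CCAATC in 11.1% beside 5.06% and 4.62% beside 3.41%. The E-box CACGTG was in 0 peaks of either list, which by the exact interval allows up to 6.6% and 5.52%, beside 4.12% and 2.5% elsewhere. All of the members' intervals held the value of the other promoters. The YY1 site AAGATGGC was in 1 peak of each list, the NRF1 site CGCATGCG and the CREB site TGACGTCA were in none, and the palindrome CTCGCGAG was in 1 replicate 2 peak, at Sf3a2. RE1, the element recognised by the repressor REST, was matched with at most 2 mismatches at Snrpd1 alone, in both lists, which makes 1.85% and 1.54% of the peaks beside 3.15% and 6.09%. A match describes the letters in the window and is no measurement of a factor.

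Other genes of the splicing machinery, from a list of 107 grouped by role, were occupied at similar rates in some roles and at lower rates in others. In all, 77 (72.0%) had a promoter peak in either list and 53 (49.5%) in both, beside CpG-weighted shares of 44.8% and 23.3%. All 20 genes of SR-related proteins and SR protein kinases had a peak (CpG-weighted share 52.5%), 18 of them in both lists (90% beside 28.6%), among them the SR protein kinases Srpk1 and Srpk2 and the kinases Clk1 to Clk4 that phosphorylate SR proteins in the nucleus. Of 26 splicing regulators, 21 (80.8% beside 52.4%) had a peak and 18 (69.2% beside 30.3%) had peaks in both lists.

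The other roles had fewer genes with peaks in both lists, at shares closer to those of other genes of the same CpG deciles. Of 13 early and exon junction factors 12 (92.3%, CpG-weighted share of other genes 47.7%) had a peak in either list and 4 (30.8% beside 26.2%) in both. Of 20 U snRNP and LSm genes 11 (55% beside 36.6%) had a peak in either list and 4 (20% beside 16.9%) in both. Of 28 tri-snRNP, Prp19 and catalytic factors the counts were 13 (46.4% beside 37.5%) and 9 (32.1% beside 17.0%). The widest replicate 1 peak in each role was at Srrm2 (2142 bp), a scaffold of nuclear speckles, at Ptbp1 (3115 bp, with 4 replicate 2 peaks), an hnRNP that represses exons, at Wbp4 (2272 bp), at U2af2 (2105 bp), the reader of the polypyrimidine tract, and at the RNA helicase gene Ddx5 (2771 bp).

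Set beside other large gene groups, the 65 splicing factor genes had the higher shares. Genes with symbols of cytosolic ribosomal proteins, a rule that also takes in S6 kinase genes, had a promoter peak in either list in 53.1% of 98 and in both lists in 30.6%. For proteasome genes these were 50% and 22% of 50, and for translation initiation factor genes, a rule that also takes in eIF2 kinase genes, 47.3% and 32.7% of 55. Against other genes of the same CpG deciles the differences for either list were 18.8, 23.6 and 5.52 percentage points. That of the splicing factor genes was 34.4. For both lists the differences were 15.3, 11.2 and 11.5 points, and that of the splicing factor genes was 44.7. Differences between these groups were not tested.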

How the data were processed

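Eya1 ChIP-seq peak lists from E13.5 kidneys (2 replicates, groups taken from the sample titles) were analysed. Per the authors' methods, reads were aligned to mm10 with Bowtie at default settings (the submitters' processing notes name HISAT2), MACS was run against input or IgG with several P cutoffs, and the methods speak of using peaks common to these calls. Each deposited list gives peak positions (chromosome, start, end), with no score, signal or count, so these other measures and the depth are unknown. Which cutoff and which control (input, IgG or both) each list rests on is not given in the sources used here, and widths and nesting between the lists depend on both. Every peak fell within its GRCm38 chromosome (0 beyond an end).

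Genes were occupied when a peak lay within 1 kb of any GENCODE M21 start (mitochondrial genes left out). They were shared when each list had such a peak, with no overlap required. Other genes were weighted to the members' deciles of CpG number (10 strata, 1 kb window), and this weighting was tested on simulated data. Intervals are exact Clopper-Pearson at the 95% level. No test was run on the members. Members, the list of other splicing genes, the compared gene groups and the motifs were chosen with earlier results of these data known. Positions are given for the 2 genes of each subfamily with the widest interval covered by both lists and for genes with 2 or more peaks in a list, and further genes were named after their values were seen. A gene that this rule names is counted but not reported here. Alternatives were other distances, starts, overlaps and CpG strata, autosomes only, and each replicate left out. Principal and RefSeq starts were added after seeing the data. Coordinates are 1-based. Software was Python 3.11.15 with pysam 0.24.0, pandas 2.3.3, samtools 1.23.1, numpy 2.4.6, matplotlib 3.10.9 and scipy 1.17.1.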

Additional observations from a re-analysis of the deposited data

How the results depend on the processing

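Of 81 values recomputed under the alternatives for 9 results, 63 stayed within the set range of the reported value, 18 moved and 0 reversed in direction. The range was a factor of 1.5 for counts and, for differences from the CpG-weighted share, the SD of 1.28 percentage points between replicates. When a peak had to cover the TSS base itself, 28 genes instead of 45 were occupied in replicate 2 and 28 instead of 44 in both lists, 7 instead of 17 genes had several peaks, and the differences were 39.0 points for either list and 34.5 for both, which turns their order. When each peak had to cover 50% of the other, 3 genes were shared and the difference was 2.93 points, a rule that a short replicate 2 peak inside a wide replicate 1 peak cannot meet by construction. Without replicate 1 or without replicate 2 both differences were 38.7 to 40.5 points. They were 29.6 (either) and 41.6 (both) with deciles of CpG observed/expected, 32.4 and 43.2 with CpG deciles crossed with an opposite-strand start, and, chosen after seeing the data, 32.4 and 41.8 with principal starts only. With RefSeq starts, also added later and matched for 57 of the 65 genes, the difference for both lists was 40.7 points. Apart from the constructions named, the cause was not tested. No paired analysis was possible because only 1 group had peak lists. The lists carry no depth, so a gene without a peak is not shown to lack Eya1.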
